A study of Rattus norvegicus with 6 samples.

Results

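The aminoacyl-tRNA synthetase genes were examined in cultured heart muscle cells of the rat. Genes were taken by name from the deposited count table: symbols made of 1 amino acid letter and ars, with or without a final digit, together with Farsa, Farsb, Eprs and Tarsl2. This gave 36 genes among 21648, of which 20 encode cytosolic enzymes and 16 encode mitochondrial enzymes. A final 2 in the symbol marks the mitochondrial set, with the exception of Tarsl2, a threonyl-tRNA synthetase relative that was counted as cytosolic. The rule used names and no measured value, but it was set with earlier results of these data known. The cells were wild-type neonatal rat ventricular myocytes (NRVM), isolated from pups at postnatal day 3. One group received 10 µM of compound 915, which the series describes as activating the estrogen-related receptors (ERRs), for 72 h, and the other received the same volume of DMSO, its solvent, for 72 h, with 3 libraries in each group. All cultures had passed through a plating step that lets fibroblasts attach, and had bromodeoxyuridine in the plating medium, which holds back dividing cells. Fibroblasts are reduced and not removed in such cultures.

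Each aminoacyl-tRNA synthetase joins 1 amino acid to its tRNA, the step at which the genetic code is read into amino acids. Animal cells keep separate enzymes for the cytosol and for mitochondria, where tRNAs encoded by mitochondrial DNA serve the translation of respiratory chain subunits; both sets are encoded in the nucleus. Gars and Kars are known to encode both forms from 1 gene. Several cytosolic enzymes sit in a multi-synthetase complex on the scaffold proteins Aimp1, Aimp2 and Eef1e1. Many cytosolic synthetase genes are known targets of ATF4, the transcription factor of the amino acid and integrated stress response, which binds C/EBP-ATF response elements. ERRs are nuclear receptors that bind near many genes of oxidative metabolism, and heart muscle depends on mitochondria for its energy.

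Library depth was similar across the samples, with 36799845 to 40010826 counts in the DMSO tables and 30639244 to 38078137 in the 915 tables. Levels are the deposited CPM (counts scaled by 1 total per library), which are not corrected for transcript length, so they are compared between libraries and not between genes. Values for single libraries are given in the order 1, 2, 3 of each group. Fold changes and their tests come from the fit, whose own scaling makes a fold differ slightly from the ratio of the CPM. The labels call the libraries biological replicates without saying whether each came from its own isolation, so a p-value here reflects library-to-library spread, some of which may be technical. All 9 measured cardiac myocyte markers were higher with 915, and their summed level was 20214 to 21298 CPM with DMSO and 27822 to 28243 CPM with 915. Of the 9 measured fibroblast markers, 6 were lower and 2 higher. Their summed level was 21211 to 22091 CPM with DMSO and 11228 to 11874 CPM with 915. Most of this sum came from the collagen genes Col1a1 (mean 11988 CPM with DMSO, 6289 with 915) and Col3a1 (7067 and 2826). The 2 higher markers were Dcn (357 and 483) and Pdgfra (110 and 129), and Postn was not called (1606 and 1597). Smooth muscle and pericyte markers were lower in 5 of 6 cases (1769.6 to 1909 CPM with DMSO and 738 to 790.3 CPM with 915), macrophage markers in 4 of 8 (222 to 239.6 CPM with DMSO and 118 to 143 CPM with 915) and endothelial markers in 4 of 7, with 1 higher (75.7 to 79.0 CPM with DMSO and 62.4 to 63.1 CPM with 915). Over all tested genes, 24.3% were higher and 25.5% lower. No marker with a row in the table was at 0 in all libraries. A lower share of other cells and less of these transcripts per cell cannot be told apart in bulk RNA. The part of these markers in the synthetase values was not tested.

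One promoter element was found among cytosolic genes and in no mitochondrial one. RefSeq start windows of the GRCr8 assembly, which run from 250 bases before to 50 bases after a gene's start, were matched for 32 of the 36 genes. The element TTGCATCA, the core of a C/EBP-ATF response element, was searched on both strands. It lay in the windows of 7 of 17 cytosolic genes, Cars, Iars, Mars, Nars, Tars and Yars among them, and 0 of 15 mitochondrial genes, against 0.827% of all 27457 genes with a window. The occurrences in these 6 named genes are shown with their flanks, whether or not the gene was called. Each line reads 5′ to 3′ on the gene's strand, with the element, or its reverse complement in Nars and Yars, in capitals and 11 flanking bases on each side, or 4 bases after the element where the Yars window ends.
Cars: cggcgccgcggTTGCATCAgattctggaaa
Iars: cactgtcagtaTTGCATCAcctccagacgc
Mars: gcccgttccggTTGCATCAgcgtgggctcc
Nars: cctaggtgatcTGATGCAAcgcttcagtca
Tars: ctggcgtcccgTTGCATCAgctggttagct
Yars: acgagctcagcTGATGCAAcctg
On GRCr8 the stretches are chr1:208225334-208225363 (minus strand), chr17:15193658-15193687 (minus), chr7:65023752-65023781 (minus), chr18:60275778-60275807 (minus), chr2:62114811-62114840 (minus) and chr5:146820190-146820212 (plus). The first base of the element lay 27, 24, 17 and 14 bases before the starts of Tars, Iars, Mars and Nars, whereas in Cars and Yars it lay 17 and 38 bases after the start. The ERR response element TNAAGGTCA was in 0 of the 32 windows, and in 1.26% of all genes with a window. The ETS core CCGGAAG, searched on both strands, was in 9 of 17 cytosolic and 6 of 15 mitochondrial windows against 9.63% of all genes. The windows of Hars and Hars2 overlap and hold the same 2 copies, which therefore enter both counts. The NRF1 core GCATGCGC was in Vars2 and Wars2 alone among the synthetases, against 2.77% of all genes. A match of letters describes the window and is not a measured binding site, and the lack of a match says only that the letters are not in it.

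Hars and Hars2, the cytosolic and mitochondrial histidyl-tRNA synthetase genes, start back to back, and the 143 bases between their starts lie upstream of both. This stretch (chr18:28672713-28672855, GRCr8, read in the direction of Hars2, on the plus strand) is shown because Hars2 was called higher with 915 and Hars was not. Capitals mark 2 copies of the ETS core, both as its reverse complement.
Hars2: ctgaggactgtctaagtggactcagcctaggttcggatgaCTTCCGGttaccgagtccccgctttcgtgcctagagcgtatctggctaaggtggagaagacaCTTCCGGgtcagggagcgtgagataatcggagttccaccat

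With 915, 17 of the 35 synthetase genes that could be tested were higher and 0 were lower. The test was edgeR's quasi-likelihood test at an adjusted p of 0.05 over all 14253 tested genes, of which 49.8% passed, 24.3% higher and 25.5% lower. The share of synthetases called was thus near that of all genes, at 48.6%, while all the called synthetases were on the higher side. The changes were small: the largest was 1.38-fold, and 0 of the 35 were called with a change of 1.5-fold or more, a size that 18.2% of all tested genes reached. The median log2 fold change was 0.16 over the synthetases and −0.01 over all tested genes. In 16 synthetases every 915 library lay above every DMSO library in CPM, and in 0 below, against 23.9% and 32.8% of all tested genes. Lower calls also numbered 0 at an unadjusted p under 0.05 in edgeR and with DESeq2, and 14 of the 17 higher calls held in all 11 refits.

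Genes of both compartments were called higher, and the difference between the compartments was not tested. Among cytosolic genes 11 of 20 were higher, with log2 fold changes centred on a median of 0.16 and a range of −0.05 to 0.41. Among mitochondrial genes 6 of 15 tested were higher, with a median of 0.21 and a range of −0.18 to 0.47. Beside both sets stand 24.3% higher and 25.5% lower of all tested genes. Summed over the set, cytosolic transcripts went from 2606 ± 46.6 to 2844 ± 45.1 CPM and mitochondrial ones from 249.9 ± 4.91 to 276 ± 6.67 CPM (mean ± SD, n = 3 each), ratios of 1.09 and 1.11. With the authors' library totals and no further scaling, the called numbers were 9 cytosolic and 6 mitochondrial, and without 915 library 3 they were 9 and 8. The plot of fold changes with intervals shows the overlap of the sets.

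**Figure D1:**
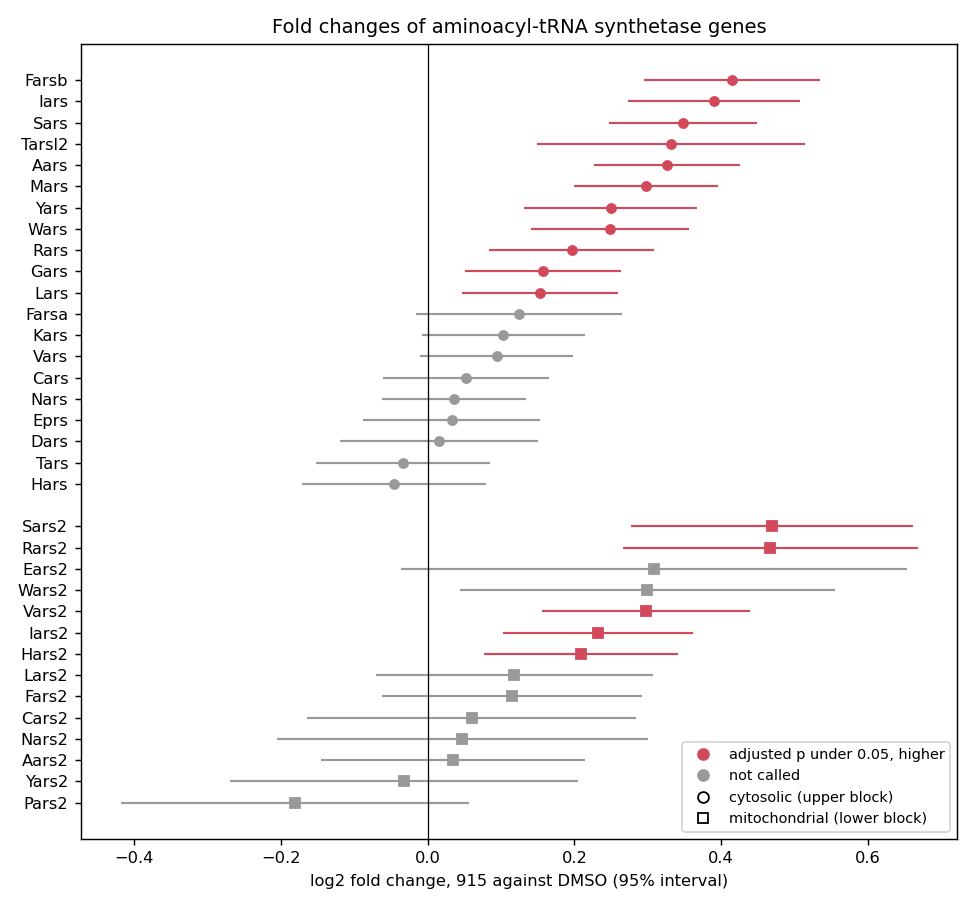
Log2 fold change of the tested synthetase genes, 34 of 35 shown, 915 against DMSO, with its 95% interval from the edgeR fit; cytosolic genes form the upper block and mitochondrial genes the lower, and red marks an adjusted p under 0.05. Called genes all lie to the right of 0, and no point exceeds 0.47.

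Among the cytosolic genes, the highest fold change was that of Farsb (ENSRNOG00000014119), which encodes the beta subunit of phenylalanyl-tRNA synthetase. Farsb stood at 46.5, 44.7 and 49.0 CPM under DMSO and 59.7, 59.7 and 61.2 CPM under 915. The groups did not overlap, and the gene rose 1.33-fold (log2 fold change 0.41 ± 0.0559 (SE), edgeR adjusted p = 2.80e-05). Farsa (ENSRNOG00000003149), which encodes the alpha subunit of the same enzyme, stood at 38.8, 42.3 and 41.8 CPM under DMSO and 43.7, 40.5 and 45.2 CPM under 915. Its groups overlapped through 915 library 2, and it was not called (log2 fold change 0.12 ± 0.0651 (SE), edgeR adjusted p = 0.128). The subunits assemble in equal number in the enzyme. The log2 ratio of Farsb to Farsa was 0.26, 0.08 and 0.23 under DMSO and 0.45, 0.56 and 0.44 under 915, a difference of 0.29 with no overlap between groups (exact two-sided permutation p = 0.1, the smallest that 3 against 3 libraries allow). This pair of subunits was singled out after its values were seen.

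Members of the multi-synthetase complex were called, all higher, in 4 of 7 cases, counting the members with a row in the table. Of all tested genes 49.8% were called, 24.3% higher and 25.5% lower. Synthetases without a row, a complex member and a mitochondrial enzyme among them, are not analysed here. Iars (ENSRNOG00000014616), for isoleucine, was at 104, 95.1 and 106 CPM under DMSO and 133, 132 and 122 CPM under 915. All 915 libraries exceeded all DMSO libraries, and Iars rose 1.31-fold (log2 fold change 0.39 ± 0.0545 (SE), edgeR adjusted p = 3.84e-05). Mars (ENSRNOG00000025459), whose enzyme charges both initiator and elongator methionine tRNA, was at 113, 114 and 113 CPM under DMSO and 132, 137 and 135 CPM under 915, a rise of 1.23-fold with no overlap (log2 fold change 0.30 ± 0.0459 (SE), edgeR adjusted p = 9.24e-05). Rars, for arginine, was at 85.9, 83.1 and 77.7 CPM under DMSO and 89.4, 92.1 and 91.8 CPM under 915. Its groups did not overlap, and the rise was 1.15-fold (log2 fold change 0.20 ± 0.0523 (SE), edgeR adjusted p = 0.00625). Lars, whose enzyme charges leucine and is also known as a leucine sensor upstream of mTORC1, was at 122, 113 and 121 CPM under DMSO and 126, 124 and 133 CPM under 915, a rise of 1.11-fold (log2 fold change 0.15 ± 0.0498 (SE), edgeR adjusted p = 0.0196). The call for Lars was lost in 4 alternatives: with the authors' totals (edgeR adjusted p = 0.1001), without DMSO library 2 (0.0533), without 915 library 3 (0.0728) and with replicate number as a block (0.0534). The complex members Kars, Eprs and Dars were not called, with log2 fold changes of 0.10 (95% interval −0.01 to 0.21), 0.03 (95% interval −0.09 to 0.15) and 0.02 (95% interval −0.12 to 0.15). Eprs is the fused enzyme for glutamate and proline, and its libraries ranged from 355 to 401 CPM with DMSO and from 363 to 406 CPM with 915.

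Outside the complex, 7 of 13 cytosolic genes were higher, beside 24.3% higher and 25.5% lower of all tested genes. Sars (ENSRNOG00000020255), for serine, was at 201, 200.3 and 204 CPM under DMSO and 246, 239.7 and 259.6 CPM under 915, and rose 1.27-fold (log2 fold change 0.35 ± 0.0472 (SE), edgeR adjusted p = 2.94e-05). Aars (ENSRNOG00000018404), for alanine, was at 342, 338 and 337 CPM under DMSO and 417, 392 and 425 CPM under 915, and rose 1.25-fold (log2 fold change 0.33 ± 0.0462 (SE), edgeR adjusted p = 4.36e-05). In both genes the DMSO libraries lay close together and the 915 libraries all lay above them. Tarsl2, a second cytosolic threonyl-tRNA synthetase, was at 16.2, 13.4 and 14.2 CPM under DMSO and 17.2, 18.2 and 18.0 CPM under 915, a rise of 1.26-fold (log2 fold change 0.33 ± 0.0851 (SE), edgeR adjusted p = 0.00493). Yars, for tyrosine, was at 97.7, 106 and 99.2 CPM under DMSO and 116, 111 and 121 CPM under 915 and rose 1.19-fold (log2 fold change 0.25 ± 0.0550 (SE), edgeR adjusted p = 0.00174). Wars, for tryptophan, a gene known to respond to interferon gamma, was at 101, 96.2 and 96.5 CPM under DMSO and 118, 109 and 110.0 CPM under 915 and rose 1.19-fold (log2 fold change 0.25 ± 0.0503 (SE), edgeR adjusted p = 8.98e-04). For these 3 genes every 915 library was above every DMSO library. Gars, for glycine, was at 171, 159 and 165 CPM under DMSO and 182, 169.6 and 183 CPM under 915, so that 915 library 2 fell within the DMSO range. It was called at 1.12-fold (log2 fold change 0.16 ± 0.0493 (SE), edgeR adjusted p = 0.0161), and the call was lost with the authors' totals (edgeR adjusted p = 0.0848), without 915 library 1 (0.0678) and without 915 library 3 (0.0558).

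Another 6 cytosolic genes outside the complex were not called. Besides Farsa these were Vars at 0.09 (95% interval −0.01 to 0.20), Cars at 0.05 (95% interval −0.06 to 0.17), Nars at 0.04 (95% interval −0.06 to 0.13), Tars at −0.03 (95% interval −0.15 to 0.08) and Hars at −0.05 (95% interval −0.17 to 0.08) on the log2 scale. Tars, the main threonyl enzyme, went from 103 ± 4.07 to 97.1 ± 5.66 CPM while its relative Tarsl2 was called higher. The upper interval bound of the 5 genes other than Farsa was at most 0.20. By catalytic fold, the class I enzymes of the cytosol were higher in 6 of 8 cases (median 0.22) and the class II enzymes in 5 of 11 (median 0.12), Eprs carrying both folds. Among mitochondrial enzymes these counts were 3 of 8 for class I (median 0.26) and 3 of 7 for class II (median 0.12). Of all tested genes 49.8% were called, 24.3% higher and 25.5% lower. These groupings by complex and fold were made after the values were seen and carry no test.

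**Figure D2:**
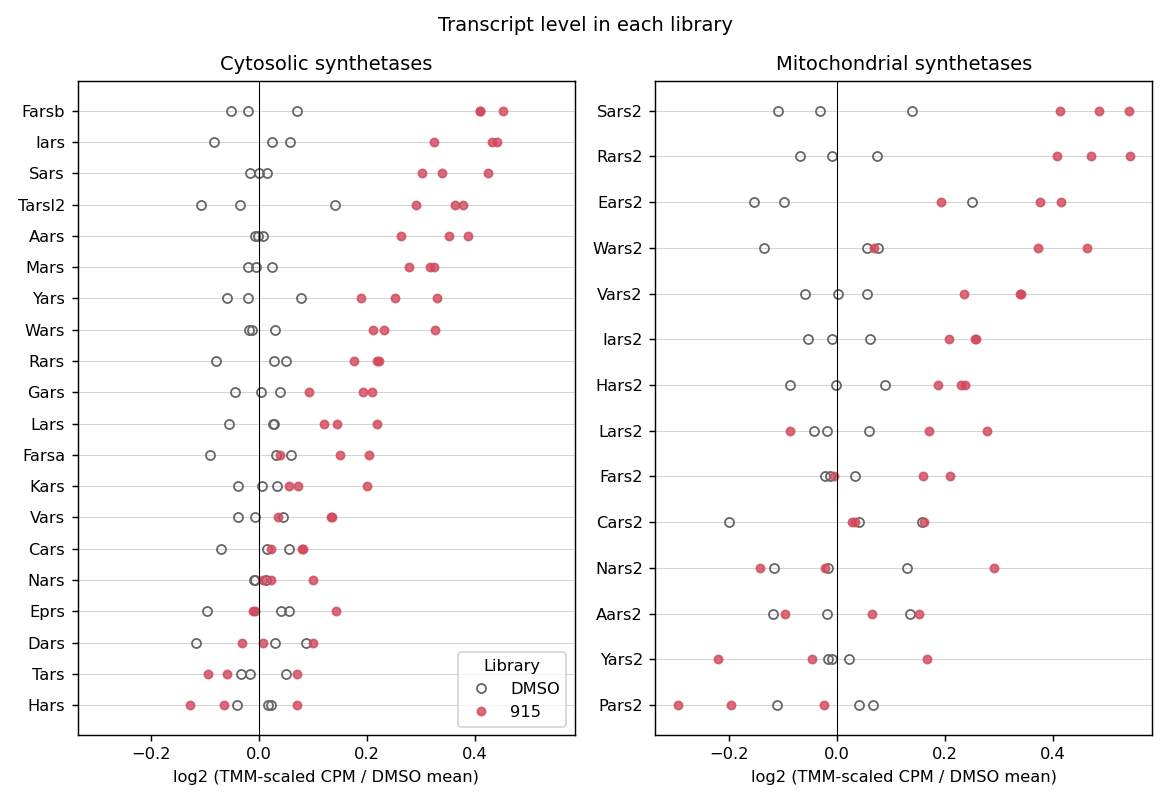
TMM-scaled CPM of the same 34 synthetase genes in each library, as log2 relative to the mean of the DMSO libraries, with open grey circles for DMSO and filled red circles for 915. On this scale the groups separate in each called gene shown and in Kars, and overlap in the others.

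Of the mitochondrial enzymes, Sars2 and Rars2 had the highest fold changes of all synthetases. Sars2 (ENSRNOG00000019962), for serine, was at 11.98, 11.1 and 13.3 CPM under DMSO and 16.4, 17.0 and 15.5 CPM under 915, and rose 1.38-fold (log2 fold change 0.47 ± 0.0895 (SE), edgeR adjusted p = 5.76e-04). Rars2 (ENSRNOG00000008643), for arginine, was at 8.94, 8.43 and 9.36 CPM under DMSO and 11.9, 11.4 and 12.4 CPM under 915, and also rose 1.38-fold (log2 fold change 0.47 ± 0.0936 (SE), edgeR adjusted p = 8.49e-04). Neither gene had a 915 library within the DMSO range. Vars2, for valine, was at 25.5, 26.0 and 24.2 CPM under DMSO and 30.7, 28.6 and 30.6 CPM under 915, a rise of 1.23-fold (log2 fold change 0.30 ± 0.0659 (SE), edgeR adjusted p = 0.00180). Iars2, for isoleucine, was at 33.2, 31.6 and 34.5 CPM under DMSO and 38.1, 38.1 and 36.6 CPM under 915, and rose 1.17-fold (log2 fold change 0.23 ± 0.0604 (SE), edgeR adjusted p = 0.00542). For Vars2 and Iars2 too the groups did not overlap. Hars2, for histidine, was at 38.0, 39.6 and 42.4 CPM under DMSO and 45.1, 45.4 and 43.6 CPM under 915, a rise of 1.16-fold without overlap (log2 fold change 0.21 ± 0.0614 (SE), edgeR adjusted p = 0.0112), which was lost without DMSO library 1 (edgeR adjusted p = 0.0649).

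The other mitochondrial genes were not called. Wars2, for tryptophan, lay at the threshold (log2 fold change 0.30 ± 0.119, edgeR adjusted p = 0.0500, just above 0.05), with 7.54, 8.45 and 8.63 CPM under DMSO and 10.9, 10.2 and 8.24 CPM under 915. Its 915 library 3 fell within the DMSO range, and without that library the adjusted p was 0.0110. Ears2, for glutamate, was the scarcest tested member, with 119 to 173 counts in the DMSO libraries and 137 to 174 in the 915 libraries, and its interval was wide at 0.31 (95% interval −0.04 to 0.65). Lars2 was at 0.12 (95% interval −0.07 to 0.31) and was called without 915 library 3 alone among the refits (edgeR adjusted p = 0.0365). Fars2, Cars2, Nars2, Aars2 and Yars2 were at 0.12, 0.06, 0.05, 0.03 and −0.03 on the log2 scale. Pars2, for proline, had the lowest value of all synthetases, −0.18 (95% interval −0.42 to 0.06), going from 8.79 ± 0.577 to 7.52 ± 0.737 CPM. Mars2, for methionine, had 0 to 2 counts in every library, fewer than the 3 counts that a count of 0 allows. The low-count filter removed it, so it was not tested in the main fit. The table lists Mars2 and Ears2 each under 2 Entrez numbers with the same counts, and how reads that map to several places were counted is not given in the sources used here.

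Whether the mitochondrial and the cytosolic enzyme for 1 amino acid responded alike was examined by the ratio of their CPM within each library, over 16 pairs for 15 amino acids. Pairs share members: Fars2 was set against both Farsa and Farsb, and Eprs is the cytosolic partner of both Ears2 and Pars2, so the counts are not of independent pairs. The ratio was higher with 915 in every library for 4 pairs and lower in every library for 5, and the groups overlapped for 7. Single genes lay wholly above in 23.9% and wholly below in 32.8% of all tested genes. The share over other pairs of genes was not worked out, so these counts do not set the synthetase pairs apart. The median difference over the 16 pairs was 0.01 on the log2 scale, with 8 pairs above and 8 below 0. For glutamate, Ears2 to Eprs was −6.64, −6.84 and −7.03 under DMSO and −6.63, −6.60 and −6.41 under 915, a difference of 0.29, with no overlap between groups. For arginine, Rars2 to Rars was −3.27, −3.30 and −3.05 under DMSO and −2.91, −3.02 and −2.89 under 915, a difference of 0.27. For valine the difference was 0.20, also without overlap.

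The differences without overlap in favour of the cytosolic enzyme were those for phenylalanine with the beta subunit as partner, alanine, tyrosine, proline and isoleucine. Fars2 to Farsb was −1.58, −1.50 and −1.67 under DMSO and −1.83, −1.78 and −2.04 under 915, a difference of −0.30. With the alpha subunit as the partner the groups overlapped: Fars2 to Farsa was −1.32, −1.42 and −1.45 under DMSO and −1.38, −1.22 and −1.60 under 915, a difference of −0.0091 (exact permutation p = 1). Aars2 to Aars was −3.88, −3.64 and −3.78 under DMSO and −4.05, −4.12 and −4.00 under 915, a difference of −0.29. Yars2 to Yars was −3.36, −3.46 and −3.39 under DMSO and −3.49, −3.64 and −3.95 under 915, a difference of −0.29, with 915 library 3 the lowest. Pars2 to Eprs differed by −0.21 and Iars2 to Iars by −0.16. The exact permutation test, two-sided, gave p = 0.1 for each of the 9 pairs without overlap, the smallest value that 3 against 3 libraries allow, so no pair could pass 0.05. For histidine, whose genes share the stretch printed above, the ratio of Hars2 to Hars was −1.08, −1.001 and −0.85 under DMSO and −0.68, −0.61 and −0.86 under 915, a difference of 0.26 with overlap through 915 library 3 (exact permutation p = 0.2). Without 915 library 3 the pairs in which every 915 library was above numbered 7, and without DMSO library 3 they numbered 6. Leaving out a library can only keep or raise this count.

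**Figure D3:**
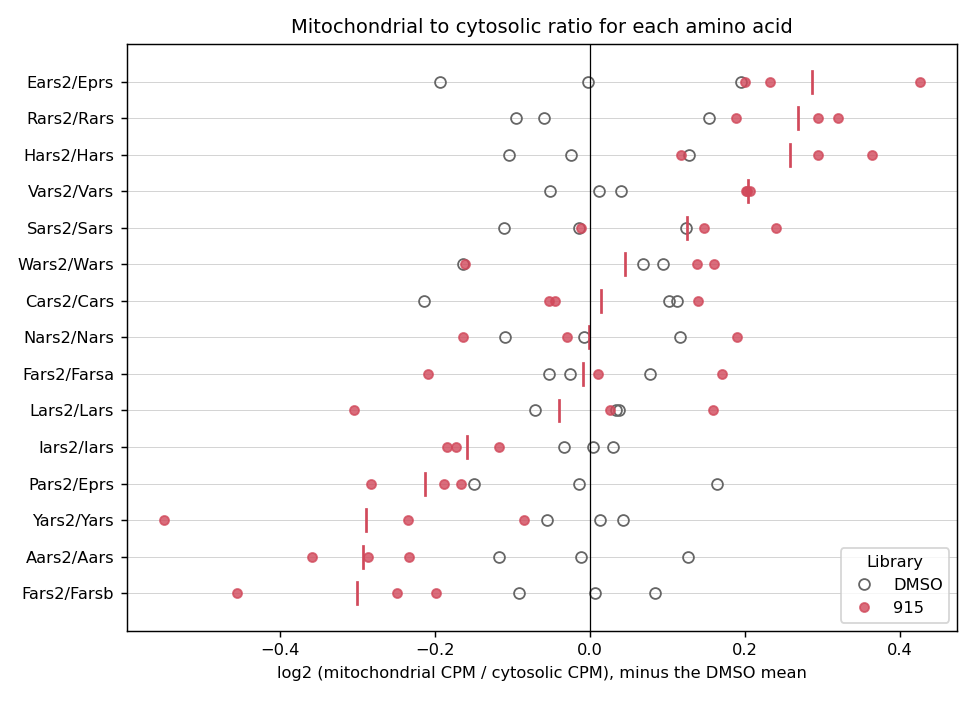
Log2 ratio of the mitochondrial to the cytosolic enzyme's CPM in each library for 15 of the pairs, minus the mean of the DMSO libraries, with open grey circles for DMSO, filled red circles for 915 and a red bar at the 915 mean. The pairs run from Ears2/Eprs, 0.29, at the top to Fars2/Farsb, −0.30, at the bottom, with 7 means above 0 and 8 below.

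Genes that hold the printed C/EBP-ATF element were split in their response. Of the 7 genes 4 were called higher, among them Iars, Mars and Yars at 1.31-fold, 1.23-fold and 1.19-fold, while Nars, Cars and Tars were not called, at 0.04, 0.05 and −0.03 on the log2 scale. Their median was 0.25, beside 0.14 and 5 of 10 called for the cytosolic genes with a window but no element. ATF4 itself, Atf4, went from 361 ± 7.96 to 465 ± 21.1 CPM, a rise of 1.33-fold with an adjusted p of 4.57e-06 in edgeR. In the list of ATF4 and amino acid response genes outside the synthetases, 9 of 23 measured members were higher and 8 lower (7 lower with DESeq2), the median being 0.06. Over all tested genes the shares were 24.3% higher and 25.5% lower. The smallest p-values on the higher side were those of Ddit3, a stress transcription factor also called CHOP, the amino acid transporter chain Slc3a2 and Ppp1r15a, which directs dephosphorylation of eIF2 alpha (1.87-fold, 1.69-fold and 1.87-fold). On the lower side they were those of Psat1 and Phgdh, enzymes of serine synthesis, and Nupr1, a stress-induced nuclear protein (1.81-fold, 1.31-fold and 1.33-fold lower). Asns, the asparagine synthetase gene often used to read out this response, was not called (116 ± 2.08 to 117 ± 3.75 CPM).

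Other genes of mitochondrial translation were mostly called higher. Of 10 measured mitochondrial translation factors 8 were higher and 0 lower, the median on the log2 scale being 0.40. Beside these and the next list stand 24.3% higher and 25.5% lower of all tested genes. The smallest p-values were those of Guf1, a translocase-like GTPase, Gfm2, which recycles mitochondrial ribosomes, and Gfm1, the elongation factor G of mitochondria, which rose 1.39-fold, 1.46-fold and 1.29-fold. Of 11 measured genes for mitochondrial tRNA processing 9 were higher and 0 lower (median 0.30, 0 lower also at an unadjusted p under 0.05), among them Mto1 and Gtpbp3, partners in modifying the tRNA wobble base, and Trit1, which adds an isopentenyl group beside the anticodon (1.46-fold, 1.41-fold and 1.34-fold). The call for Tsfm, a translation factor of the first list, was lost in 3 of 11 refits (edgeR adjusted p up to 0.0589). That for Pus1, of the second list, was lost in 5 of 11 (edgeR adjusted p up to 0.142). Mitochondria lack their own glutaminyl-tRNA synthetase and make this tRNA with an amidotransferase. Its subunit gene Gatb rose from 18.9 ± 0.244 to 31.7 ± 1.78 CPM, 1.74-fold, and Qrsl1, which encodes another of its subunits, rose 1.32-fold, whereas Gatc and the formyltransferase gene Mtfmt were not called (0.16 and 0.19). Whether these lists differ from the mitochondrial synthetases, whose median was 0.21, was not tested.

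On the cytosolic side, the scaffold gene Aimp1 rose 1.32-fold from 48.6 ± 0.459 to 61.9 ± 4.27 CPM, and Eef1e1 was called at 1.15-fold, while Aimp2 was not called (0.10). The Eef1e1 call was lost in 6 of 11 refits (edgeR adjusted p up to 0.0890), among them those without DMSO library 1, DMSO library 3, 915 library 1 or 915 library 3. The list of cytosolic elongation factors did not move in 1 direction, with 3 of 8 genes higher and 1 lower (median −0.02). It also holds the gene of an enzyme that modifies elongation factor 1 alpha, which was not called. For this list and the ERR list below, the shares over all tested genes were 24.3% higher and 25.5% lower. Eef1a2, the muscle and nerve form of elongation factor 1 alpha, rose 1.45-fold from 387 ± 13.4 to 542 ± 20.6 CPM, and Eef1a1, the widely expressed form, fell 1.10-fold from 3487 ± 139 to 3066 ± 39.6 CPM. Eef1d and Eif5a, which are exchange and elongation factors, were called at 1.15-fold and 1.10-fold. The Eef1a1 call was lost without DMSO library 1, without 915 library 1 and with replicate number as a block (edgeR adjusted p up to 0.0722), and that of Eif5a in 6 of 11 refits (up to 0.188). Of 6 genes for ERRs and their coactivators 5 were higher and 0 lower, among them the receptor genes Esrra and Esrrg (1.51-fold and 1.96-fold) and the coactivator genes Perm1 and Ppargc1b (3.33-fold and 1.72-fold).

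**Figure D4:**
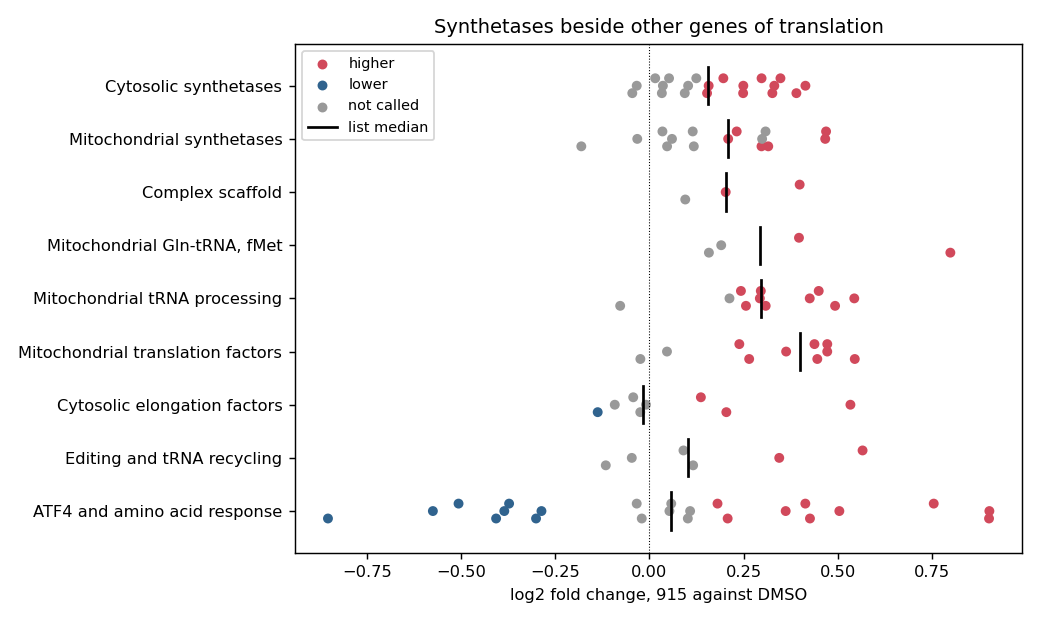
Log2 fold change, 915 against DMSO, of the synthetases and of 7 lists of related genes, 1 point per tested gene, coloured by its call, with a black bar at the list median; points are spread vertically for legibility. Medians run from −0.02 for cytosolic elongation factors to 0.40 for mitochondrial translation factors, with the synthetase sets at 0.16 and 0.21.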

How the data were processed

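Total RNA of 6 cultures was sequenced. The submitters' processing notes name STAR 2.5.1a, featureCounts 1.4.6-p5 and the rat build Rnor_6.0. The sources used here state neither strand nor multi-mapping settings, so overlapping genes and close copies may be miscounted. The deposited counts are whole numbers in 22641 rows, and 993 rows that list an Ensembl gene again, with equal counts, were dropped. The CPM values deposited by the authors are these counts over a total of 32709227 to 42975767 per library, of which the table holds 93.1% to 93.7%. Counts of any 2 libraries of a group differed beyond sampling noise.

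Counts were filtered with filterByExpr, scaled by TMM and fitted with edgeR 4.0.16 in R 4.3.3 (quasi-likelihood, group alone, two-sided, Benjamini-Hochberg over 14253 genes). SE is the log2 fold change over the square root of F. The fit was run on simulated counts in which few genes changed, evenly in both directions and with 1 common dispersion. In these data 49.8% of genes were called, so that run does not check the scaling used here. Alternatives were RLE scaling, the authors' totals, DESeq2 1.42.0, no low-count filter, a replicate block and each library left out.

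Members and lists were chosen with earlier results of these data known; motifs, catalytic class and complex membership were added after the values were seen. Values in every library are given for up to 6 called members with the highest and 6 with the lowest fold change of each class, for the 3 highest and 3 lowest pair ratios, and for others singled out after their values were seen (Farsa, Wars2, Hars2 to Hars). Up to 3 genes with the smallest p are named per list and direction, and Esrra and Esrrg are named regardless of value. Atf4, Asns, Aimp2, Gatc, Mtfmt, Ptrh2, Aarsd1, Irf1, Tsfm, Pus1 and Postn were added after their values were seen. Sequences are RefSeq's for GRCr8, whose coordinates are not those of Rnor_6.0. Some single genes and 1 sequence that these rules would name are not reported here; the counts include them.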

Additional observations from a re-analysis of the deposited data

How the results depend on the processing

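Of the 17 higher calls, 14 held in all 11 refits, and Lars, Gars and Hars2 were lost in 4, 3 and 1 of them. Wars2 was gained with RLE factors, without the low-count filter and without 915 library 3, and Lars2 in the last of these. Called cytosolic genes numbered 9 to 11 and mitochondrial ones 5 to 8 over the refits, always with 0 lower. With the authors' library totals and no further scaling, which moved the median of all genes from −0.01 to −0.06, the class medians were 0.11 (cytosolic) and 0.16 (mitochondrial). Leaving out 1 library gave 0.13 to 0.18 and 0.17 to 0.23. Counting Tarsl2 as mitochondrial gave 10 and 7 called, and without Gars and Kars 10 cytosolic genes were called. Members that were not called changed sign with the authors' totals: Eprs to −0.016, Dars to −0.033, Nars to −0.013, Nars2 to −0.0022 and Aars2 to −0.014. With 1 library left out, Eprs ran from −0.018 to 0.062, Dars from −0.039 to 0.059, Tars from −0.084 to 0.00026, Nars2 from −0.089 to 0.13, Cars2 from −0.034 to 0.14, Yars2 from −0.14 to 0.060 and Aars2 from −0.023 to 0.11. Called scaffold genes numbered 1 with the authors' totals, 1 with the replicate block and 1 to 2 with a library left out. Elongation factors called lower numbered 2 with the authors' totals, 0 with the block and 0 to 1 with a library left out. Pairs with every 915 library above numbered 4 to 7. Leaving out a library can only keep or raise this count, so its range does not measure stability. With all libraries kept, 5 pairs had every 915 library below. The cause of the shifts in fold changes and calls was not tested.

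No pairing by replicate number was seen. Deviations from the group mean correlated at −0.03, −0.11 and −0.09 for same-numbered libraries, and at −0.0057 to 0.091 for differently numbered ones. With 3 libraries per group this check cannot show whether same-numbered cultures shared an isolation. With replicate number as a block, 10 cytosolic and 6 mitochondrial genes were called. All 3 within-number differences were above 0 in 4 pairs and below 0 in 5. Pairs without overlap between groups give this under any numbering, so these counts say nothing about pairing. Ears2, at 3.38 CPM with DMSO, had the lowest CPM and the largest SE (0.160) of the tested members, and depth was not told apart from library spread in it; Mars2 was below what the depth resolves.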

Other observations

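Editing and recycling factors that act on charged tRNA were measured for 6 genes, of which 2 were higher and 0 lower, beside 24.3% higher and 25.5% lower of all tested genes. Among them Dtd1, which removes D-amino acids from tRNA, rose 1.27-fold from 24.1 ± 0.497 to 29.6 ± 1.03 CPM (mean ± SD, n = 3 each). Ptrh2, a mitochondrial peptidyl-tRNA hydrolase, was at −0.12 (95% interval −0.26 to 0.03) on the log2 scale, and Aarsd1, an editing relative of alanyl-tRNA synthetase, at 0.09 (95% interval −0.05 to 0.23).

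Of 10 measured interferon gamma response genes, 5 were called higher and 0 lower, the median on the log2 scale being 0.41. The shares over all tested genes were 24.3% higher and 25.5% lower. The chemokine gene Cxcl10 and the GTPase gene Gbp2 rose 3.94-fold and 1.33-fold. For Gbp2 the groups overlapped, with 915 library 2 at 63.9 CPM and DMSO library 2 at 64.9 CPM. Irf1, a first-line target of interferon gamma, was not called at 0.18 (95% interval −0.01 to 0.37).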
